A study of Homo sapiens with 6 samples.

Results

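The genes described here encode the proteins of the cytosolic ribosome. They were chosen by name alone: every name made of RPL or RPS, a number and at most a closing A, X or L with a further number was taken, together with RPLP0, RPLP1, RPLP2 and RPSA. This rule found 84 of the 57316 gene names in the deposited count files, with 46 genes of the large subunit, 31 genes of the small subunit and 7 paralogs whose names carry an L after the number of a core gene (RPL3L, RPL7L1, RPL10L, RPL22L1, RPL26L1, RPL39L and RPS27L). Pseudogenes, mitochondrial ribosomal proteins and genes with other names stayed outside the rule, among them FAU and RPL36AL, which also encode ribosomal proteins and are given apart.

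All libraries came from THP-1, a human monocytic leukaemia line, which was exposed to the phorbol ester PMA at 100 ng/ml for 48 h to take on macrophage features. The control group (3 libraries, replicates 1, 3 and 4) then stayed for 24 h with a control solution, and the CXCL10 group (3 libraries with the same numbers) with recombinant human CXCL10, an interferon-induced chemokine, at 100 ng/ml. The labels name no genetic change in either group, and cells without PMA were not analysed here. Polyadenylated RNA was sequenced, and reads were counted per gene. Whether the replicates stem from separate cultures is not said in the labels, so a p-value here reflects the spread among these libraries only, and that spread may be technical.

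Most ribosomal proteins are needed in equal numbers, and they are assembled with ribosomal RNA, largely in the nucleolus. Their mRNAs are among the most abundant of a cell, and most begin with a 5′ terminal oligopyrimidine (TOP) tract, a C at the first base followed by a run of C or T. The tract lets LARP1 and the kinase mTOR set how strongly these mRNAs are translated and how long they are kept.

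The annotated starts of some genes with high levels or low fold changes, of some L-type paralogs and of the core gene RPL22 are shown. They are examples of the tract that most members share and some L-type paralogs lack. They were picked by hand and are not a ranked set, so other genes of these kinds are absent. Each line gives 10 bases before and 20 bases from the RefSeq start on the gene's strand (GRCh38.p14), and capitals mark the unbroken run of C and T that begins with a C at the start.
RPLP2: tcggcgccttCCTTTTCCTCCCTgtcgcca
RPS12: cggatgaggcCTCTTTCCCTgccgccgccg
RPS27: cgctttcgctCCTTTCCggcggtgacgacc
RPS21: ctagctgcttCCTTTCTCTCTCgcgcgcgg
RPL26: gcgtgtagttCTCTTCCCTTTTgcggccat
RPL22: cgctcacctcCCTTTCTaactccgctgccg
RPL22L1: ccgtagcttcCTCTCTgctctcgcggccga
RPS27L: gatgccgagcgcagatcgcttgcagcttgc
RPL7L1: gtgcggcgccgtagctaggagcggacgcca
EEF1A1: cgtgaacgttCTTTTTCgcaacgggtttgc
TPT1: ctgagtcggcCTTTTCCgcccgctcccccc
The windows lie at chr11:809957-809986 for RPLP2, chr6:132814559-132814588 for RPS12, chr1:153990752-153990781 for RPS27 and chr20:62387093-62387122 for RPS21. Those of RPL26, RPL22 and RPL22L1 lie on the minus strand at chr17:8383174-8383203, chr1:6199576-6199605 and chr3:170870176-170870205. RPS27L (minus strand) has its window at chr15:63157458-63157487 and RPL7L1 at chr6:42879606-42879635. The last pair, EEF1A1 (chr6:73521013-73521042) and TPT1 (chr13:45341164-45341193), both on the minus strand, encode a translation elongation factor and a growth-associated protein and are shown as TOP mRNAs outside the ribosome.

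A tract was counted where at least 5 bases in a row, read in the direction of transcription from an annotated start that is a C, were C or T. It was present in 47 of the 67 members with a RefSeq promoter entry (70.1%), against 5.14% of the 27305 genes of the table and 7.19% of the genes tested here. By class, 28 of 38 large subunit genes, 18 of 24 small subunit genes and 1 of 5 L-type paralogs (RPL22L1) held it. RPLP2 had 13 such bases, RPS21 and RPL26 had 12 each, and RPS27L and RPL7L1 had none at the start. RPS29, a gene with a low fold change whose start is not shown, also had none there. Where the run was allowed to begin up to 5 bases to either side of the annotated start, 54 of 67 members and 25.2% of all genes held one.

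The libraries held 34.8 to 41.0 M counted reads. Of the 84 members, 82 passed the filter on low counts (46 large, 31 small and 5 L-type), and 76 had at least 1000 reads in every library. RPL10L, a paralog known from testis, had 0 reads in every library, which allows up to 0.146 to 0.173 CPM (counts per M reads, with a limit of 3 fragments or 6 reads, counting error only). RPL3L, known from heart and skeletal muscle, had 0 to 9 reads. Control replicate 4 stood apart: its mean correlation with the other libraries over all genes was 0.974, against 0.983 to 0.986 for the others. Among gene counts of 1 to 20 reads, 75.8% were even in this library, against 66.8% to 68.0% in the others. The cause of that difference was not tested. Of 10 macrophage markers 9 were tested, and their summed level was 3141 to 3636 CPM in the controls and 3013 to 3402 CPM with CXCL10. CD68 had 0 to 5 reads, and all of its coding sequence also lies in exons of another gene name, where the counting drops reads. Of 12 markers of lymphocytes, fibroblasts, endothelium, epithelium and red cells, 2 were tested, COL1A1 among them, and the summed level of the 12 was 2.67 to 3.49 CPM in the controls and 2.81 to 3.45 CPM with CXCL10, with 0 reads for MS4A1, EPCAM, KRT5 and HBA1.

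The comparison of CXCL10 with control asked how far ribosomal protein transcripts differ after a day with the chemokine. Every one of the 82 tested members had a lower fitted level with CXCL10, where 46% of all 16531 genes tested did, and 80 of 82 did with library size alone as the scale (not RPL17 and RPL7L1). The median log2 fold change was -0.44 over the members (a fold of 0.737), -0.44 for the large subunit, -0.43 for the small subunit and -0.45 for the L-type paralogs, beside 0.02 for all genes. In bulk RNA, fewer cells of a type and less RNA per cell cannot be told apart.

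No member was called by edgeR (quasi-likelihood fit, p adjusted by Benjamini-Hochberg over all genes tested; adjusted p from 0.683 to 0.990), and 0% of all genes were called in either direction. DESeq2 and limma-voom also called 0 members. At an unadjusted p under 0.05, edgeR counted 63 of 82 members lower (35 large, 25 small and 3 L-type) beside 4.65% of all genes, and 0 higher beside 2.5%. DESeq2 counted 65 beside 4.80% and limma-voom 65 beside 4.28%, and edgeR counted 50 beside 2.46% with library size alone as the scale. All CXCL10 libraries lay below all controls for 34 members (19 large, 13 small and 2 L-type) beside 6.48% of all genes, and above all controls for 0 beside 5.76%. Without control replicate 4 the count at an unadjusted p under 0.05 was 17 of 82 beside 1.59% of all genes, and the medians were -0.25, -0.25 and -0.22 for large, small and L-type. Without CXCL10 replicate 3 it was 13 beside 1.95%, and without CXCL10 replicate 4 it was 34 beside 1.98%. Where no filter on low counts was applied, 22 of 83 members passed edgeR's adjusted threshold (13 large and 9 small, adjusted p from 2.88e-04 to 0.0462), among them RPL26, RPS21, RPLP2 and RPL11. All 22 were lower, beside 0.298% of the 30869 genes then tested called lower and 0.146% called higher. The 30869 genes, against 16531 with the filter, include those with few reads that the filter removes. The log2 fold change of RPL26 was -0.97 with and without it.

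Members took 9.79%, 9.60% and 12.7% of all reads in control replicates 1, 3 and 4, and 9.56%, 7.61% and 8.34% in CXCL10 replicates 1, 3 and 4. The groups did not overlap, but CXCL10 replicate 1 lay next to control replicates 1 and 3, and control replicate 4 lay above all others. The large subunit made up 6.34 ± 1.07% of reads in the controls and 5.03 ± 0.564% with CXCL10 (mean ± SD, n = 3 each). For the small subunit the shares were 4.32 ± 0.694% and 3.43 ± 0.417%, and for the L-type paralogs 0.0459 ± 0.00370% and 0.0411 ± 0.00231%. Without control replicate 4 the difference between the group means was -0.694 points for the large and -0.493 points for the small subunit, against -1.31 and -0.893 points with all libraries, and -0.00268 points for the L-type paralogs, against -0.00481. Reads of large subunit genes per read of small subunit genes were 1.46, 1.46 and 1.48 in control replicates 1, 3 and 4 and 1.46, 1.49 and 1.46 in CXCL10 replicates 1, 3 and 4, so the balance of the subunits stayed within 1.46 to 1.49 while their joint share ranged from 7.61% to 12.7%.

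**Figure D1:**
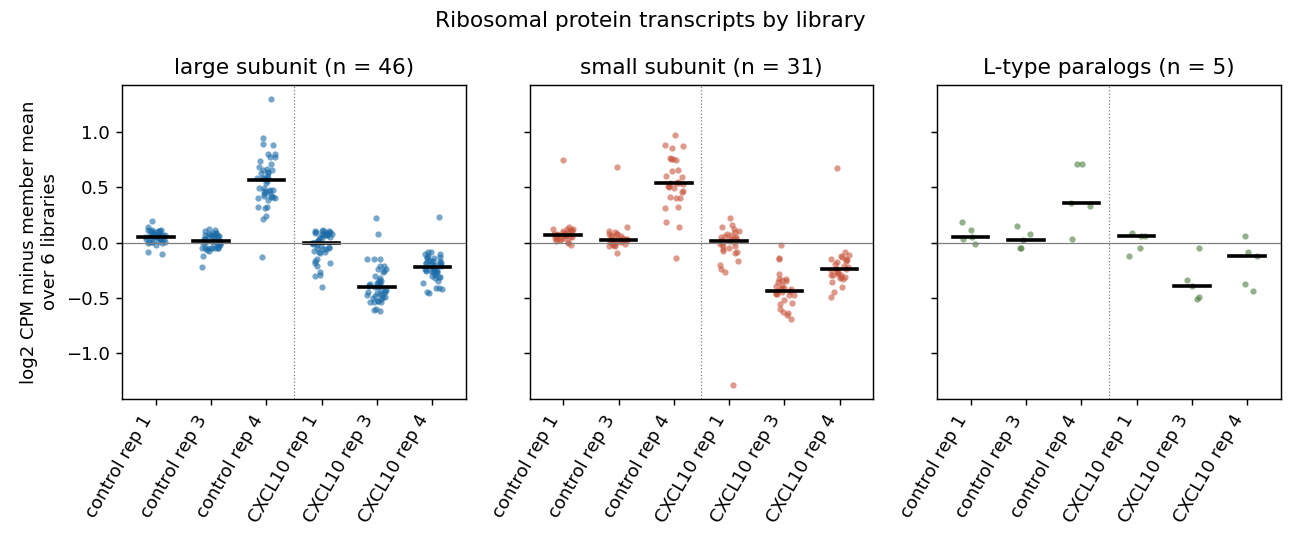
Level of every tested member in each library, as log2 CPM minus the member's mean over the 6 libraries (vertical axis), for 46 large subunit genes, 31 small subunit genes and 5 L-type paralogs; each point is 1 gene and each bar the median. Control replicate 4 sits highest (median 0.54 over all members) and CXCL10 replicate 3 lowest (median -0.42), while CXCL10 replicate 1 (median 0.01) sits beside control replicates 1 and 3.

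Most members followed the same order of libraries. Control replicate 4 was the highest library for 78 of 82 members and CXCL10 replicate 3 the lowest for 69. Relative to each member's own mean, the median deviation on the log2 scale was 0.06, 0.02 and 0.54 in control replicates 1, 3 and 4 and 0.01, -0.42 and -0.24 in CXCL10 replicates 1, 3 and 4. The level in control replicate 4 was 1.41 times the mean of the other controls (median over members), where the median over all genes was 0.997. Without control replicate 4, all CXCL10 libraries lay below both remaining controls for 33 of 82 members, beside 9.02% of all genes. Without CXCL10 replicate 1, the groups did not overlap for 77 members, all lower with CXCL10, beside 16.7% of all genes. CXCL10 replicate 1 lay above both control replicates 1 and 3 for 19 members. Across all genes tested, the correlation of a library's deviation with exon length (Spearman) was -0.20, -0.07 and -0.22 in the controls and -0.11, 0.30 and 0.19 with CXCL10, in the same order of replicates. With each library's trend over exon length removed, the medians were -0.40 for the large subunit, -0.39 for the small subunit and -0.30 for the L-type paralogs, and 54 of 82 members were lower at an unadjusted p under 0.05 beside 3.41% of all genes (edgeR).

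A smaller set departed from this order. CXCL10 replicate 1 was below CXCL10 replicates 3 and 4 for 8 members, among them RPL5, RPL6, RPL11, RPL14, RPL22, RPS4X and RPS6 (named after their values were seen), and above both for 68. RPL11 and RPL5 together carry the 5S ribosomal RNA and can bind MDM2. RPL11 was measured at 1114, 1074 and 1840 CPM in control replicates 1, 3 and 4 and at 817, 915 and 952 CPM in CXCL10 replicates 1, 3 and 4. RPL5 had 1377, 1444 and 1922 CPM in the controls and 1152, 1244 and 1266 CPM with CXCL10. For both genes the groups did not overlap, and the spread within the CXCL10 group was narrow.

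The stalk of the large subunit is built from RPLP0 and the acidic proteins RPLP1 and RPLP2, and it recruits elongation factors. RPLP2 (chr11:809965-812880, plus strand, hg38) had 723, 698 and 1392 CPM in control replicates 1, 3 and 4 and 699, 523 and 543 CPM in CXCL10 replicates 1, 3 and 4. CXCL10 replicate 1 lay between the lowest controls, and control replicate 4 alone stood far above them. The fitted difference was -0.67 ± 0.23 on the log2 scale (± SE, as in all values below; adjusted p = 0.683 by edgeR). RPLP1 had 1549, 1450 and 2615 CPM in the controls and 1492, 1101 and 1165 CPM with CXCL10 (log2 fold change -0.58 ± 0.20). RPLP0, often used as a reference gene in quantitative PCR, had 3321, 3243 and 4253 CPM in the controls and 3398, 2518 and 2779 CPM with CXCL10, with a smaller log2 fold change of -0.31 ± 0.15. In all 3 stalk genes CXCL10 replicate 1 overlapped the controls.

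Among large subunit genes, log2 fold changes ran from -0.97 to -0.02. RPL26 (chr17:8377516-8383250, minus strand), which sits by the exit of the peptide tunnel, had the lowest value, -0.97 ± 0.29 (adjusted p = 0.683). It was measured at 21.0, 18.5 and 49.3 CPM in control replicates 1, 3 and 4 and at 16.4, 13.8 and 15.0 CPM in CXCL10 replicates 1, 3 and 4, so the groups did not overlap, and without control replicate 4 the value was -0.39. The next were RPLP2, RPL38 (-0.63 ± 0.21) and RPL13 (-0.61 ± 0.22). RPL38 had 504, 479 and 930 CPM in the controls and 450, 379 and 406 CPM with CXCL10, again without overlap. RPL13 had 1292, 1201 and 2328 CPM in the controls and 1265, 938 and 952 CPM with CXCL10, and CXCL10 replicate 1 overlapped the controls.

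At the other end of the large subunit stood RPL17 (-0.02 ± 0.19), RPL36A (-0.12 ± 0.23), RPL7A (-0.15 ± 0.13) and RPL22 (-0.21 ± 0.15). RPL7A had 2097, 2023 and 2370 CPM in control replicates 1, 3 and 4 and 2216, 1763 and 1856 CPM in CXCL10 replicates 1, 3 and 4. CXCL10 replicate 1 exceeded the lower controls there. RPL22, an RNA-binding protein that also binds small viral RNAs, had 102, 109 and 142 CPM in the controls and 88.0, 115 and 103 CPM with CXCL10, with CXCL10 replicate 3 above the lower controls. RPL17 and RPL36A were counted at under 10 CPM in every library, and their sign turned with the setting. Without control replicate 4, RPL36A was at 0.13, and with library size alone as the scale RPL17 was at 0.058.

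**Figure D2:**
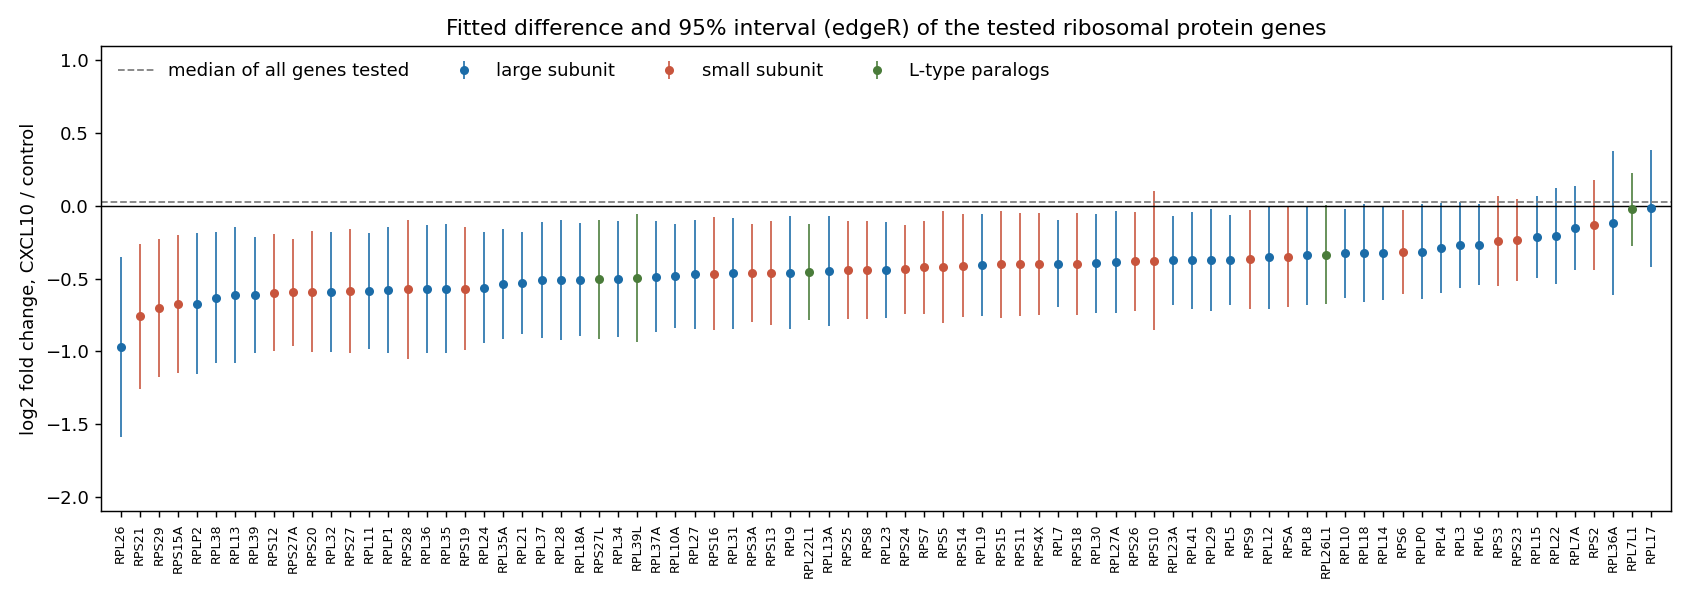
Fitted log2 fold change of CXCL10 over control with its 95% interval (edgeR; vertical axis) for 81 of the 82 tested members in ascending order, coloured by class; the dashed line is the median of all genes tested (0.02). All points lie below 0, from RPL26 at -0.97 to RPL17 at -0.02, where 46% of all genes tested do. Wholly below 0 lie 63 intervals, before any adjustment, beside 4.65% of all genes lower at an unadjusted p under 0.05 (edgeR). After adjustment 0 members were called. With library size alone as the scale RPL17 (0.058) and RPL7L1 (0.056) lie above 0.

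Small subunit genes ranged from -0.76 to -0.13. RPS21 (chr20:62387103-62388520, plus strand), 1 of the shortest proteins of the subunit, had the lowest log2 fold change, -0.76 ± 0.23 (adjusted p = 0.683). Its level was 266, 239 and 479 CPM in control replicates 1, 3 and 4 and 245, 158 and 179 CPM in CXCL10 replicates 1, 3 and 4. Control replicate 4 was far above the rest, and CXCL10 replicate 1 lay between the other controls. RPS29, a zinc-binding protein of the subunit's head, followed with 380, 367 and 637 CPM in the controls and 376, 226 and 250 CPM with CXCL10 (-0.70 ± 0.22). RPS15A had 276, 250.5 and 471 CPM in the controls and 259, 162 and 204 CPM with CXCL10 (-0.67 ± 0.22).

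The smallest differences of the small subunit were those of RPS2 (-0.13 ± 0.14), RPS23 (-0.23 ± 0.13), RPS3 (-0.24 ± 0.14) and RPS6 (-0.32 ± 0.14). RPS2 and RPS3 line the channel where mRNA enters. RPS2 had 2769, 2654 and 2916 CPM in control replicates 1, 3 and 4 and 3080, 2177 and 2355 CPM in CXCL10 replicates 1, 3 and 4, with CXCL10 replicate 1 as the highest library of all. RPS3 had 2054, 2115 and 2557 CPM in the controls and 2161, 1634 and 1899 CPM with CXCL10, which overlapped. RPS6, the substrate of the S6 kinases downstream of mTOR, had 2544, 2519 and 3272 CPM in the controls and 2163, 2259 and 2268 CPM with CXCL10. Of these 4 genes it was the one whose groups did not overlap. RPS23, a protein of the decoding centre, had 293, 318 and 328 CPM in the controls and 297, 230 and 272 CPM with CXCL10. RPSA, which is also known as a laminin receptor, had 2159, 2088 and 2722 CPM in the controls and 2251, 1525 and 1698 CPM with CXCL10 (log2 fold change -0.35 ± 0.16), and CXCL10 replicate 1 lay inside the range of the controls.

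Standard errors of the members' log2 fold changes had a median of 0.17. The 95% interval lay inside -1 to 1 for 65 of the 82 members. At this depth a change past 2-fold in either direction was therefore outside the interval for these 65, before any adjustment for the number of genes.

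Members with short coding sequences had the lower log2 fold changes. Over the 77 large and small subunit genes the Spearman correlation of log2 fold change with coding length was 0.58, and with the total length of the annotated exons it was 0.17. These genes share the same 6 libraries, so the correlation is a description and not a test. The 25 genes with up to 400 coding bases had a median log2 fold change of -0.57, the 30 genes of over 400 and up to 600 bases a median of -0.43, and the 22 longer genes a median of -0.33. RPL3 and RPL4, the longest with 1209 and 1281 coding bases, were at -0.27 and -0.29, whereas RPS29 with 168 and RPL38 with 210 were at -0.70 and -0.63. RPL41, the shortest with 75 coding bases, was at -0.37, above the median of its length class. Over the 68 genes with at most 50% of their coding sequence shared with another gene name, the correlation was 0.70.

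The same relation was present in single libraries, in opposite directions. Over these 68 genes the deviation from a member's own mean correlated with coding length at -0.64 in control replicate 4, at 0.70 in CXCL10 replicate 3 and at 0.51 in CXCL10 replicate 4, and at -0.17, -0.06 and -0.03 in control replicates 1 and 3 and CXCL10 replicate 1. Short members were thus relatively high in the library with the highest ribosomal protein share and relatively low in the libraries with the lowest shares. Without control replicate 4 the correlation of log2 fold change with coding length was 0.62. It was 0.49 with each library's trend over exon length removed, and 0.39 with both. Across all 16531 genes tested, log2 fold change correlated with exon length at 0.32.

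**Figure D3:**
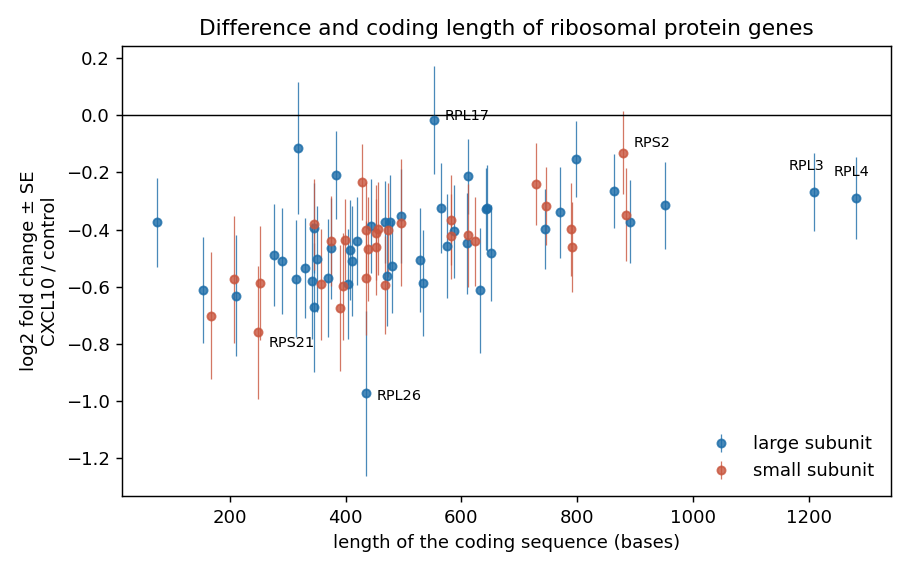
Log2 fold change ± SE (vertical axis) against the length of the coding sequence in bases (horizontal axis) for 76 of the 77 large and small subunit genes; each point is 1 gene. Values lie lower on the left, with a median of -0.57 up to 400 bases, and higher on the right, with a median of -0.33 above 600 bases.

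Levels between genes were compared as reads per kb of annotated exon per M reads, averaged over the 6 libraries. The highest in the small subunit were RPS18 (1950), RPS12 (1743) and RPS27 (1691), and in the large subunit RPL13A (1126), RPL8 (1050) and RPL41 (999). Among the lowest were RPS10 (1.26) and RPS29 (37.8) in the small subunit, and the lowest in the large subunit were RPL36A (1.20), RPL17 (2.92) and RPL26 (8.89). Exon length here joins the exons of all annotated transcripts, and per kb of coding sequence RPL41 (14759), RPL37A (8187) and RPS18 (7843) led. This second scale divides the reads of all exons, untranslated parts included, by the coding bases alone. It raises genes with few coding bases, such as RPL41 with 75 in 1108 exon bases. Only 3 of the 6 leading genes of the first scale were also among the leading genes of their subunit on the second.

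Control replicate 4 was also the highest library for these abundant members. RPS18, in the head of the small subunit, had 3534, 3577 and 5084 CPM in control replicates 1, 3 and 4 and 3507, 2646 and 3111 CPM in CXCL10 replicates 1, 3 and 4, without overlap (log2 fold change -0.40 ± 0.16). RPS12 had 1108, 1094 and 1823 CPM in the controls and 1003, 772 and 883 CPM with CXCL10, also without overlap (-0.60 ± 0.19). RPL13A, another common reference gene, had 2721, 2617 and 3900 CPM in the controls and 2748, 1932 and 2091 CPM with CXCL10, where CXCL10 replicate 1 overlapped the controls (-0.45 ± 0.18). For RPS27 the log2 fold change was -0.59 ± 0.20, for RPL8 -0.34 ± 0.16 and for RPL41 -0.37 ± 0.16.

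Very low counts of single members went with overlaps in the annotation. The counting left out reads that lie over exons of more than 1 gene name, and for 9 of the 77 large and small subunit genes over 50% of the coding sequence lies in exons of another name. Among them are RPL17 (100%), RPL36A (94.3%), RPS10 (92.1%), RPL26 (71.0%), RPL22 (59.9%), RPS15A (54.6%), RPS23 (54.1%) and RPL30 (51.6%). For RPL17, RPL36A and RPS10 the other name is a readthrough gene (RPL17-C18orf32, RPL36A-HNRNPH2 and RPS10-NUDT3) with 0 reads of its own. For RPS23 it is ATG10, which lies on the opposite strand, and no strand was set in the counting. The median level of the 9 genes was 51.4 reads per kb of coding sequence per M reads, against 2512 (936 to 14759) for the other 68. The 9 were not all low: RPL30 (1338) lay inside the range of the 68, and RPS15A (693) and RPS23 (676) lay below it by less than the rest. RPS10, a protein at the mRNA entry site, was counted at 3.23, 3.15 and 3.68 CPM in control replicates 1, 3 and 4 and at 2.48, 2.90 and 2.36 CPM in CXCL10 replicates 1, 3 and 4. The counted levels of these 9 genes are those of the part of the transcript that no other name covers, and their fold changes rest on that part.

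**Figure D4:**
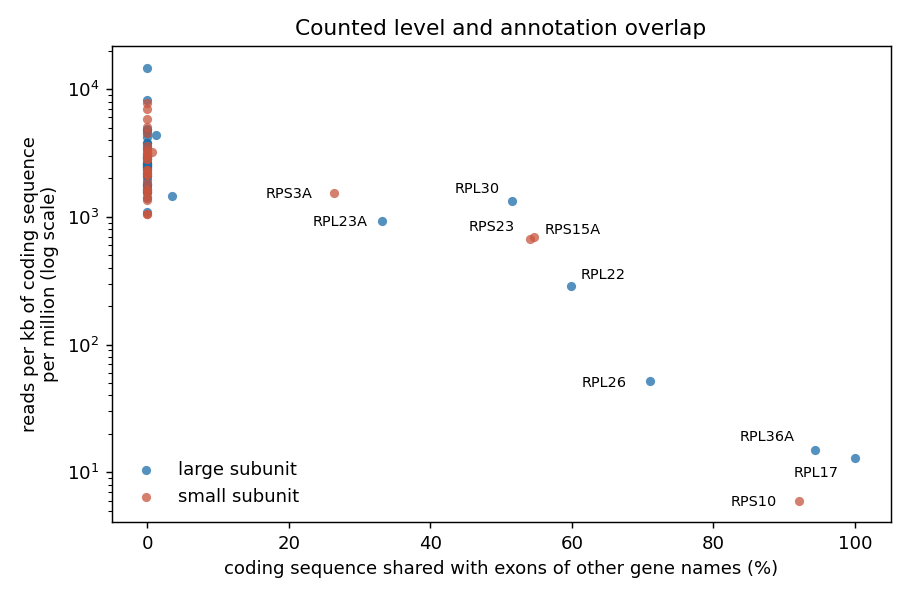
Mean level in reads per kb of coding sequence per M reads (vertical axis, log scale) against the percent of the coding sequence that lies in exons of another gene name (horizontal axis), 1 point for each of 76 of the 77 large and small subunit genes. Levels fall from a median of 2512 among the 68 genes with at most 50% shared to 5.99 for RPS10, the lowest point shown. RPL30, with 51.6% shared, lies at 1338.

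The 5 tested L-type paralogs were counted at 11.0 to 40.0 reads per kb of exon per M reads, from RPS27L to RPL26L1. RPS27L, a target of p53, had 97.3, 91.1 and 154 CPM in control replicates 1, 3 and 4 and 86.8, 66.1 and 88.6 CPM in CXCL10 replicates 1, 3 and 4, without overlap (-0.50 ± 0.19). RPL22L1, whose expression is known to be held down by RPL22, had 49.7, 48.5 and 56.2 CPM in the controls and 45.7, 33.3 and 33.8 CPM with CXCL10, also without overlap (-0.45 ± 0.15). RPL39L had 31.9, 30.2 and 51.1 CPM in the controls and 32.5, 24.6 and 23.0 CPM with CXCL10 (-0.50 ± 0.20). In RPL39L, CXCL10 replicate 1 lay above the lower controls. RPL26L1 had 49.6, 48.5 and 57.9 CPM in the controls and 48.7, 32.8 and 42.2 CPM with CXCL10 (-0.34 ± 0.16), with CXCL10 replicate 1 level with the lower controls. RPL7L1 differed least in this class, with 214, 219 and 220 CPM in the controls and 209, 209 and 225 CPM with CXCL10 (-0.02 ± 0.12). Its 95% interval ran from -0.28 to 0.23, and its sign turned with library size alone as the scale (0.056).

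The ratio of a paralog to its core gene within a library does not depend on the scaling between libraries. A library's trend over exon length can still enter it where the genes of a pair differ in length. RPL7L1 and RPL7 have 7809 and 2700 exon bases, and RPL36AL and RPL36A have 746 and 3964. The ratios were not run with that trend removed. The ratio was compared for 6 pairs by an exact two-sided permutation test over libraries, whose smallest possible p is 0.1, adjusted over the 6 pairs, so that no pair could pass 0.05. The pairs of RPL3L and RPL10L had too few reads for a ratio. RPL7L1 made up 7.31%, 7.43% and 5.98% of the reads of RPL7L1 and RPL7 in control replicates 1, 3 and 4 and 7.94%, 9.26% and 8.94% in CXCL10 replicates 1, 3 and 4. The groups did not overlap, and the log2 ratio differed by 0.37 (95% interval 0.01 to 0.73; exact p = 0.1, adjusted p = 0.3). Without control replicate 4 the difference was 0.26. The intervals of the ratios are t intervals with the variance pooled over both groups, unadjusted and apart from the permutation test. RPL36AL, an autosomal copy of RPL36A outside the name rule, made up 97.8%, 97.9% and 97.9% of the reads of that pair in the controls and 97.5%, 96.5% and 97.4% with CXCL10. Those groups did not overlap either (difference in log2 ratio -0.43, 95% interval -0.88 to 0.03; exact p = 0.1, adjusted p = 0.3). The difference was -0.26 without CXCL10 replicate 3. Of the coding sequence of RPL36A, 94.3% is shared with its readthrough gene, so its counts are a remainder.

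Other pairs overlapped between groups. RPL22L1 made up 32.7%, 30.9% and 28.4% of the reads of its pair with RPL22 in the controls and 34.2%, 22.5% and 24.8% with CXCL10 (difference in log2 ratio -0.26, 95% interval -1.01 to 0.48), and leaving out CXCL10 replicate 3 or CXCL10 replicate 1 gave -0.10 or -0.51. RPL26L1 made up 70.3%, 72.4% and 54.0% of the reads of its pair with RPL26 in the controls and 74.8%, 70.4% and 73.7% with CXCL10 (0.48, interval -0.57 to 1.53), and the difference was 0.12 without control replicate 4. The share of RPL26L1 is set against a core gene with 71.0% of its coding sequence left out of the counting where reads lie over both names. RPL39L made up 4.07%, 3.76% and 4.18% of the reads of its pair with RPL39 in the controls and 4.43%, 4.94% and 3.76% with CXCL10 (0.13, interval -0.23 to 0.48), with differences of 0.03 to 0.24 when single libraries were left out, the lowest without CXCL10 replicate 3 and the highest without CXCL10 replicate 4. RPS27L made up 5.15 ± 0.0464% of its pair with RPS27 in the controls and 5.50 ± 0.642% with CXCL10 (mean ± SD, n = 3 each; 0.10, interval -0.20 to 0.39), and leaving out CXCL10 replicate 4 or CXCL10 replicate 1 gave 0.02 or 0.19. The exact p of these pairs was 0.2 to 0.4 and their adjusted p was 0.4.

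**Figure D5:**
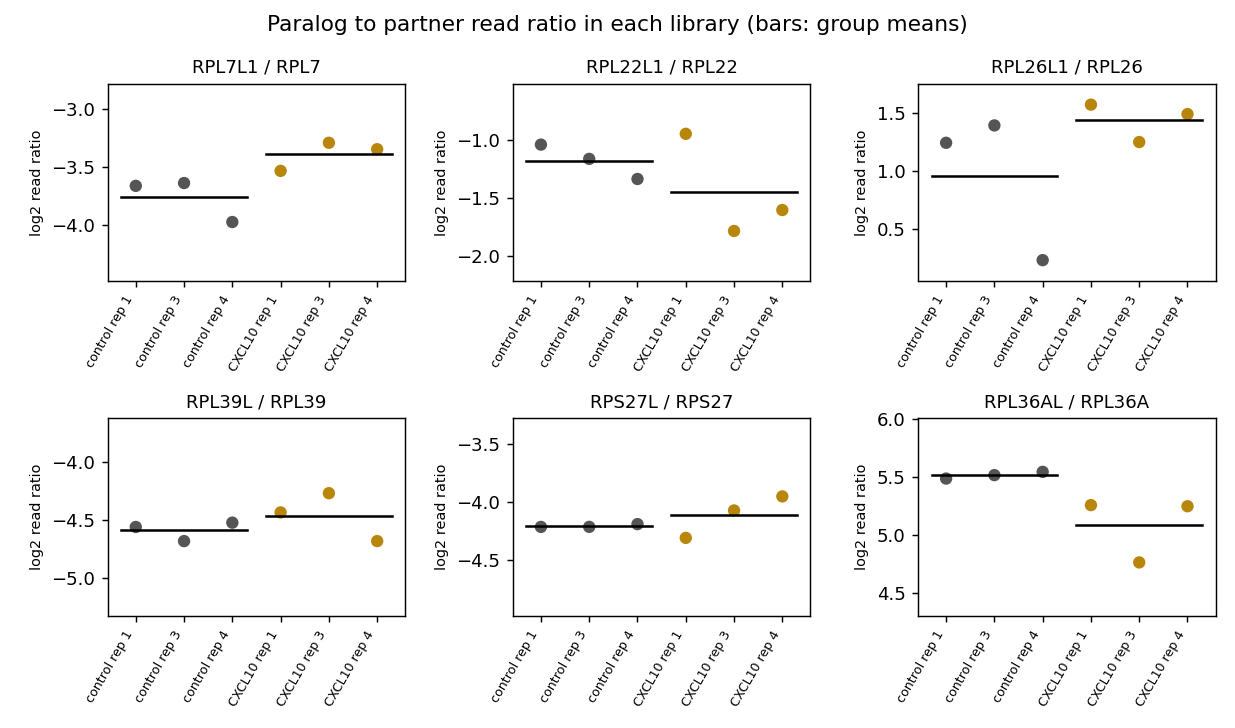
Log2 ratio of paralog reads to core gene reads in each of the 6 libraries (vertical axis) for the 6 pairs; points are libraries, bars are group means and every panel spans the same range. The groups are apart for RPL7L1 with RPL7 (means -3.76 and -3.39) and for RPL36AL with RPL36A (means 5.52 and 5.09), and overlap in the other pairs.

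Ribosomal protein genes with other names lay with the members. FAU, which encodes a fusion of a ubiquitin-like protein with a ribosomal protein, had a log2 fold change of -0.55 ± 0.20, and RPL36AL had -0.56 ± 0.17. FAU had 359, 346 and 591 CPM in control replicates 1, 3 and 4 and 360, 256 and 271 CPM in CXCL10 replicates 1, 3 and 4. RPL36AL had 197, 185 and 304 CPM in the controls and 159, 149 and 156 CPM with CXCL10, without overlap. Neither passed the adjusted test, and both were below an unadjusted p of 0.05.

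Genes of the wider translation machinery lay nearer to the median of all genes. Of 17 tested TOP mRNAs that encode elongation and initiation factors and related proteins, 13 were below 0, with a median log2 fold change of -0.13, and 0 passed the adjusted test. The median was -0.06 without control replicate 4 and -0.05 with library size alone as the scale. NACA (-0.43 ± 0.14) and TPT1 (-0.41 ± 0.17) were the lowest and EIF3L (0.56 ± 0.24) the highest. Without control replicate 4, NACA was at -0.26, TPT1 at -0.17 and EIF3L at 0.27. TPT1 had 2522, 2539 and 3925 CPM in the controls and 2417, 1970 and 2360 CPM with CXCL10, without overlap. EEF1A1, chosen after its values were seen, carries the same kind of tract and had 10288, 10999.9 and 10307 CPM in the controls and 8624, 11014.5 and 11138 CPM with CXCL10 (-0.04 ± 0.13). EEF1G was listed with 0 reads, and all of its coding sequence lies in exons of another gene name.

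Assembly factors and regulators gave no calls. Of 20 large subunit assembly factors, 16 were below 0 (median -0.16), with NOP2 at -0.78 ± 0.73 from a level under 1 CPM, EIF6, which keeps subunits from joining, at -0.31 ± 0.13, and SDAD1 at 0.31 ± 0.18. Small subunit assembly factors were balanced, with 11 of 20 below 0 (median -0.01), from BYSL at -0.27 ± 0.14 and RIOK1 at -0.26 ± 0.20 to HEATR1 at 0.60 ± 0.28. For RNA polymerase I and its factors, which make the ribosomal RNA, 4 of 12 were below 0 (median 0.09), with POLR1C at -0.31 ± 0.14, POLR1E at -0.24 ± 0.15 and RRN3 at 0.74 ± 0.25. Among 13 regulators of TOP mRNAs and ribosomal protein genes, 5 were below 0 (median 0.05), and EIF4EBP1, a translation repressor that mTOR inactivates, had -0.46 ± 0.18, MLST8 -0.21 ± 0.15 and LARP1 0.22 ± 0.13. With library size alone as the scale these medians were -0.08, 0.06, 0.16 and 0.12, and the median of all genes moved to 0.10. With single libraries left out they ran from -0.16 to -0.11, from -0.06 to 0.04, from 0.04 to 0.15 and from 0.00 to 0.04, and the last was -0.05 with the exon length trend removed. HEATR1 was at 0.31, EIF4EBP1 at -0.23 and NOP2 at -1.24 when control replicate 4 was left out.

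Macrophage and proliferation markers had list medians above 0. Of 9 tested macrophage markers 4 were below 0 (median 0.04), with the adaptor gene TYROBP at -0.56 ± 0.20, CD14 at -0.25 ± 0.16 and ITGAM at 0.32 ± 0.13. Of 8 proliferation markers 2 were below 0 (median 0.25), with PCNA at -0.07 ± 0.13, AURKB at -0.01 ± 0.18 and MCM2 at 0.84 ± 0.35. MCM2, a subunit of the replicative helicase, had 30.6, 35.4 and 8.28 CPM in control replicates 1, 3 and 4 and 52.9, 39.1 and 40.9 CPM in CXCL10 replicates 1, 3 and 4, and its log2 fold change was 0.43 without control replicate 4. The median of the proliferation markers was 0.10 when CXCL10 replicate 3 was left out and 0.37 when CXCL10 replicate 4 was, and that of the macrophage markers ran from 0.02 to 0.08 with single libraries left out. TYROBP was at -0.25 and CD14 at -0.03 when control replicate 4 was left out. The summed level of the proliferation markers was 433 to 526 CPM in the controls and 479 to 674 CPM with CXCL10. COL1A1 was at 0.34 ± 0.29, near 1 CPM.

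Members with and without a TOP tract at the annotated start all lay below 0. Members with one there had a median log2 fold change of -0.46 (47 genes), and members without had -0.40 (19 genes). In the large subunit these medians were -0.50 (28 genes) and -0.35 (10 genes), and in the small subunit -0.44 (18 genes) and -0.41 (6 genes). Members without a tract at the start include genes with a run that begins within 5 bases of it, such as RPL4, RPL10A and RPS28. The 746 tested genes outside the set with a tract at the start had a median of 0.02. Of them, 45.6% were below 0, beside 46% of all genes. Among these 746, the 11 that belong to the TOP mRNAs of translation described above had a median of -0.20, with 9 below 0. Whether the tract bears on the difference was not tested. RPS27L, which has no tract at the start shown above, was at -0.50, and RPL22L1, which has one, was at -0.45. RPL26L1 and RPL7L1, L-type paralogs that also have none there, were at -0.34 and -0.02. A match is a description of the letters in the window, and the binding of any factor was not measured.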

How the data were processed

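The deposited values are unnormalized read counts per gene name, 1 file per library. Per the file headers, featureCounts 2.0.6 was run on the exons of GENCODE 30. The submitters' processing notes name the build hg38. Both mates of a pair were counted, no strand was set, and reads over several genes or places were left out, per the file headers. Genes that overlap others or have close copies, such as processed pseudogenes, are therefore undercounted. The comparison used edgeR 4.0.16 under R 4.3.3 (filterByExpr, TMM factors, quasi-likelihood fit on the group over all 6 libraries, Benjamini-Hochberg adjustment, threshold 0.05). CPM use TMM-scaled totals of the tested genes, and shares use all reads. The fit was tested on simulated data. DESeq2 1.42.0 and limma 3.58.1 (voom) were alternatives, beside other scalings, filters, a replicate block, removal of the exon length trend and each library left out in turn. Paralog ratios are log2 of counts plus 0.5. Coding sequences and their overlap were taken from GENCODE 29 principal transcripts, promoters from RefSeq. The members, lists and alternatives were chosen with earlier results of these data known. Named were all L-type members with partners, the stalk genes and RPSA, per subunit the 3 highest and 3 lowest levels and the 4 lowest and 4 highest log2 fold changes, and per list the 2 lowest and the highest. No replicates agreed within sampling noise. A few genes are in the fits and counts but are not reported here one by one, and the plots of single genes leave them out.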

Additional observations from a re-analysis of the deposited data

How the results depend on the processing

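All 3 medians (large, small and L-type) stayed below 0 under every alternative run. The number of genes called by edgeR was 137 (0.444% of 30869), with 22 members among them, when no filter on low counts was used, and 0 under every other setting. Leaving out each library in turn, the members lower at an unadjusted p under 0.05 numbered from 13 (without CXCL10 replicate 3, beside 1.95% of all genes) to 69 (without CXCL10 replicate 1, beside 7.01%), against 63 beside 4.65% with all libraries. They numbered 17 without control replicate 4 (1.59%) and 34 without CXCL10 replicate 4 (1.98%). Members whose groups did not overlap numbered from 32 (without CXCL10 replicate 3, beside 10.5% of all genes) to 77 (without CXCL10 replicate 1, beside 16.7%), against 34 beside 6.48% with all libraries, and the L-type median ran from -0.22 to -0.56. Without control replicate 4 and with the exon length trend removed, an alternative chosen after seeing the data, 13 members were lower at that p beside 1.44% of all genes and the L-type median was -0.16. The cause of these shifts was not tested. Coding length in place of exon length, also added after seeing the data, shared 3 of 6 leading genes. The planned protein table was not used here, so that coding length came from GENCODE 29.

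Deviations from the group mean showed little correlation between libraries of the same number (0.03, 0.02 and -0.05 for numbers 1, 3 and 4). These values cannot settle whether the replicate numbers pair the samples. With a replicate block, 66 members were lower at an unadjusted p under 0.05, beside 4.6% of all genes, and 0 were called.

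Signs turned for genes near 0. By library size alone RPL17 was at 0.058, RPL7L1 at 0.056, AURKB at 0.057 and PCNA at 0.012. With the length trend removed RPL17 was at 0.064, AURKB at 0.080 and PCNA at 0.095, and with the replicate block as well these were at 0.059, 0.10 and 0.097. The replicate block alone put AURKB at 0.00270. With single libraries left out, the ranges were -0.15 to 0.084 for RPL17, -0.26 to 0.13 for RPL36A, -0.062 to 0.00307 for RPL7L1, -0.18 to 0.095 for AURKB and -0.13 to 0.021 for PCNA. Without control replicate 4 and with the length trend removed, RPL36A was at 0.13, CD14 at 0.064 and PCNA at 0.00820.

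Depth limits few members, among them RPL3L and RPL10L. Since both mates were counted, the read counts overstate the number of molecules.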

Other observations

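Gene names made of a member's name, a P and a number, the form used for its processed pseudogenes, were found for 77 of the members (1144 names). They held 134770 reads over the 6 libraries, or 0.624% of the reads of the members. For 8 members these reads came to over 5% of the member's own, and the median over members with reads was 0.087%. RPS10 had 1213 reads in 11 such names, 182% of its own 668 reads. RPL26 (11.7%), RPL17 (8.34%) and RPL36A (8.11%) were also among the 8. These 4 are among the members with the highest percent of coding sequence in exons of another name, so the counts they are set against are themselves a remainder. RPL41 (8.51%), RPL23A (7.66%) and RPS2 (7.09%) were among them as well, with 21035, 7498 and 42294 such reads. Members named here were chosen after their values were seen. Reads that fit a gene and its pseudogene equally well were left out by the counting, so these percentages cover only reads that could be placed.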
